A study of Mus musculus with 38 samples.

Results

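The periportal macrophages of cholestatic mouse liver were compared between WT mice and mice with a myeloid deletion of *Trail* (labelled Trail.mye). The segments compared were the IBA1-positive parts of periportal regions of interest (ROIs) in livers of DDC-fed mice, 5 from Trail.mye mice (ROIs 032, 033, 034, 035 and 036) and 4 from WT mice (ROIs 007, 009, 011 and 013), chosen by their labels. These 9 segments are part of 38 in the series, and 10547 genes were tested in them. All mice were of the C57BL/6 background, and in Trail.mye mice the floxed gene was deleted by Cre under the *Lyz2* promoter, which acts in macrophages, monocytes and neutrophils alike. The diet held 0.1% DDC and was given in 5-day rounds separated by 3 days of chow, with mice starting at 6 to 8 weeks of age and killed on day 22. The same genotypes on the control diet (4 Trail.mye and 2 WT periportal IBA1 segments) and the PanCK segments of the same 9 ROIs served for comparison. The labels do not name the mouse of a segment, so segments can share an animal, and p-values that treat them as separate understate the spread between animals and are too small. In Trail.mye the floxed allele came from a C57BL/6N strain.

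DDC is a porphyrinogenic compound that plugs small bile ducts, and macrophages then gather around the injured portal tracts. IBA1, encoded by *Aif1*, is a cytoskeletal protein of macrophages, and TRAIL is a death ligand of the TNF family that triggers apoptosis through its death receptor. Portal macrophages are a mix of resident Kupffer cells, recruited monocyte-derived cells and lipid-associated cells, which differ in scavenging, antigen presentation and cytokine release.

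The 2 groups differed in depth before any gene was considered. Total counts were 21551, 24502, 20319 and 34302 in the WT segments and 202900, 158219, 189209, 568719 and 173278 in the Trail.mye segments. Every Trail.mye segment lay above every WT segment, and the exact permutation test over all splits of the 9 segments gave p = 0.00794, the smallest it can give (two-sided, adjusted p = 0.0437 over 11 single values). The deposited counts do not go below 1. Of the genes, 45.6% to 69.9% stood at this lowest count in a WT segment, against 0.00% to 1.97% in a Trail.mye segment. Over the 4 WT segments, 2503 genes (23.7%) were at 1 count in all of them, so that for these genes no WT level was measured. The negative probe, which matches no mouse transcript, was at 1.17 to 4.89 per 100000 counts in Trail.mye and 3.35 to 5.17 in WT segments. Within Trail.mye, ROI 035 stood apart with both the highest total and the highest negative probe share. Genotype and depth cannot be told apart in these segments.

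**Figure D1:**
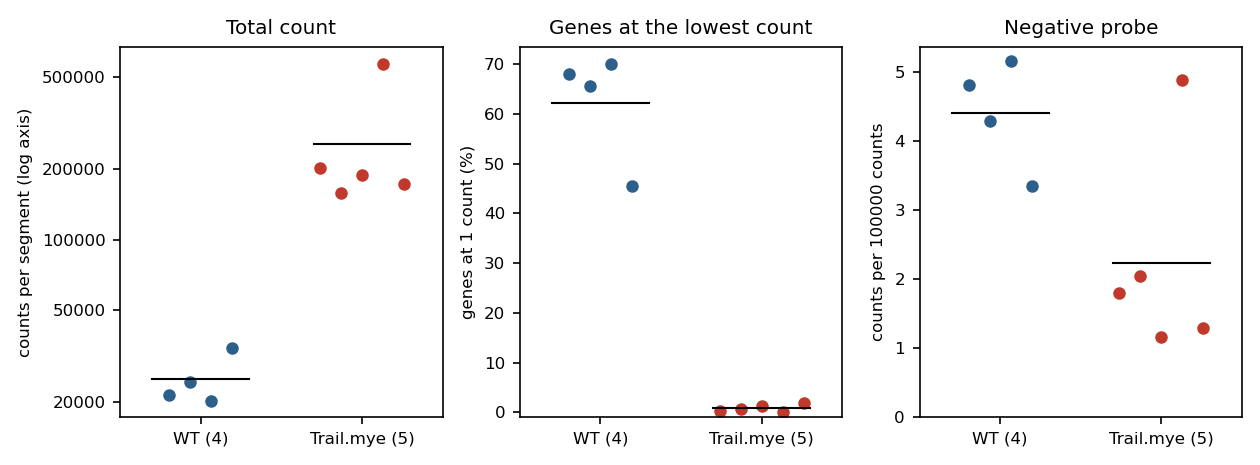
Total count (log axis), percent of genes at 1 count and negative probe per 100000 counts in each periportal IBA1 segment on DDC, with points for segments and lines for group means. The 5 Trail.mye segments hold 158219 counts or more and the 4 WT segments 34302 or fewer, and ROI 035 is the highest Trail.mye point in the panels of total count and negative probe.

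The IBA1 gate held macrophage transcripts in both genotypes, and it also held transcripts of neighbouring cells. The summed Q3-normalized count (counts scaled by the authors so that every segment has one 75th percentile) of 10 macrophage markers was higher in the IBA1 than in the PanCK segment of the same ROI in 9 of 9 ROIs, and that of 5 cholangiocyte markers in 0 of 9. Fibroblast markers were also higher in the IBA1 segment in 9 of 9 ROIs, so the pattern was not particular to macrophages. Kupffer cell, endothelial and lymphocyte markers were so in 8 of 9, neutrophil markers in 7 of 9 and hepatocyte markers in 6 of 9. In WT, 1 count was scaled to 5.25 in IBA1 segments other than ROI 013, and to at most 2.63 in PanCK segments. A WT marker at 1 count in both segments was thus higher in the IBA1 segment by scaling alone. *Ly6g*, *Csf3r*, *Pecam1* and *Cd3e* were at 1 count in every WT IBA1 segment, and the lymphocyte sum was 10.5 in each. For neutrophil, endothelial and lymphocyte markers the WT ROIs therefore cannot show whether the IBA1 segment held more. *Aif1* itself had Q3-normalized counts of 13.0, 9.70, 13.8, 11.7 and 16.5 in Trail.mye and 21.0, 5.25, 5.25 and 10.5 in WT segments, with both groups overlapping. *Alb*, the albumin gene of hepatocytes, was far higher at 1590, 1950, 1990, 721 and 2410 in Trail.mye and 1760, 3520, 966 and 2340 in WT segments, so hepatocyte RNA was present in every segment. *Col1a1*, a collagen gene of fibroblasts, ranged from 152 to 476 in Trail.mye and from 242 to 473 in WT segments. Fewer cells of a type and less RNA per cell cannot be told apart in such bulk segments.

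The makeup of the segments by these markers overlapped between genotypes. Macrophage markers took 0.625% ± 0.165 of all counts in Trail.mye (SD, n = 5) and 0.487% ± 0.0540 in WT segments (SD, n = 4; exact permutation p = 0.151, adjusted p = 0.277). Hepatocyte markers took 1.77% ± 0.586 in Trail.mye and 2.35% ± 0.985 in WT segments (exact permutation p = 0.318, adjusted p = 0.437). Fibroblast markers took 0.742% ± 0.270 and 0.784% ± 0.241 (exact permutation p = 0.762, adjusted p = 0.838). The neutrophil markers *Ly6g* and *Csf3r*, the endothelial marker *Pecam1* and the T cell marker *Cd3e* were at 1 count in all 4 WT segments.

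With edgeR's quasi-likelihood test and Benjamini-Hochberg adjustment, 2 of 10547 genes (0.019%) passed an adjusted p of 0.05 between genotypes, and both were lower in Trail.mye. At an unadjusted p under 0.05 there were 251 genes (2.38%), of which 157 (1.49%) had higher and 94 (0.891%) lower values in Trail.mye. By level, 433 genes (4.11%) were higher in every Trail.mye than in every WT segment and 60 (0.569%) lower. Of the 433, 260 had no WT count above 1.

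*Mup13* passed the test most firmly. It encodes a major urinary protein, a pheromone carrier that hepatocytes secrete at high level in male mice, and lies at chr4:61224308-61228252 (GRCm38). Its Q3-normalized counts were 110, 231, 73.5 and 73.5 in WT segments and 31.5, 28.3, 8.53, 12.5 and 15 in Trail.mye segments. Every Trail.mye segment was below every WT segment. The raw counts behind these values were 21, 44, 14 and 21 in WT and 51, 35, 13, 63 and 20 in Trail.mye, so that WT reached a like number of counts from a much smaller total. *Mup13* fell by 2.67 on the log2 scale in Trail.mye (SE 0.39, 95% interval -3.46 to -1.89, edgeR adjusted p = 0.000100). The gene belongs to a family of near-identical copies, of which it was the only member among the targets, and RNA of its relatives could reach the same probe. *Alb* overlapped between groups (log2 fold change -0.31, 95% interval -0.95 to 0.32), but after all segments were thinned to one total edgeR called it lower in Trail.mye in 10 of 10 draws (-1.14). With total counts alone as the scaling of the same draws, 1 gene was called, *Mup13*, and *Alb* was not.

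*Mup13* was lower in Trail.mye in the other sets of segments too, by values alone in the parenchymal set. On the control diet it stood at 7070 and 11400 in WT and at 1440, 1470, 1680 and 2790 in Trail.mye periportal IBA1 segments, a difference of -2.32 on the log2 scale (SE 0.42, edgeR adjusted p = 0.00079). In the PanCK segments on DDC it was at 109, 81.9, 94.5 and 52.5 in WT and 30.7, 18.9, 11.9, 8.53 and 9.66 in Trail.mye (log2 fold change -2.40, SE 0.34, edgeR adjusted p = 1.23e-06). In parenchymal IBA1 segments on DDC, away from the portal tracts, it was at 315 and 596 in WT and 14 and 36.8 in Trail.mye, and no test was run there. The groups did not overlap in any of these sets. The sets are not separate replications, since the PanCK segments share tissue with the IBA1 segments and all segments can share mice. The parenchymal set held only 2 segments per genotype, and the share of all genes without overlap in these sets is not given. The difference on DDC and that on the control diet were within -1.49 to 0.79 of each other on the log2 scale (95% interval of the interaction). The control-diet difference rests on 2 WT segments. On that diet *Gm21783* on the Y chromosome and *Cyp4a12a*, which male livers express more, were also lower in Trail.mye. Whether sex differed between the control-diet groups was not tested.

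**Figure D2:**
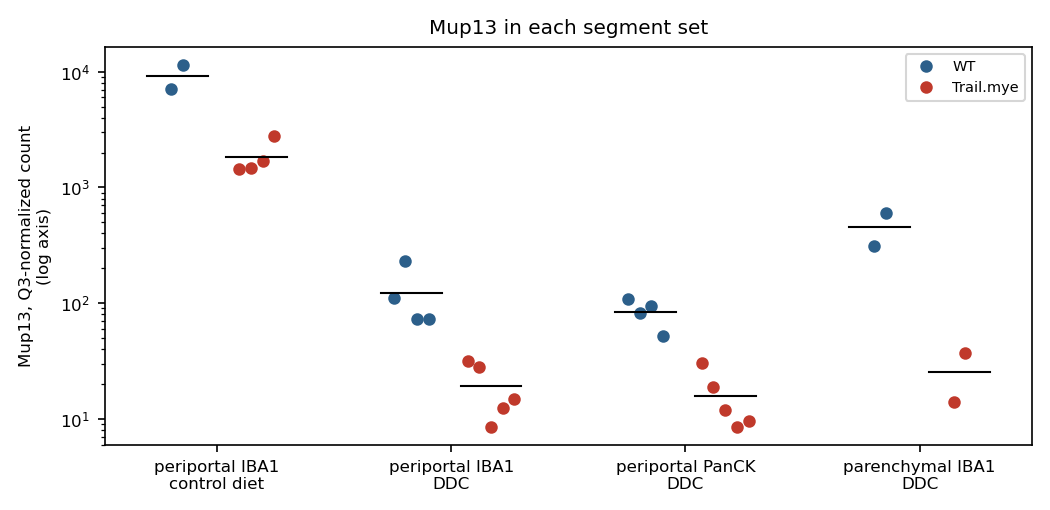
*Mup13* Q3-normalized count (log axis) in each segment of 4 sets, with points for segments and lines for group means. WT lies above Trail.mye in each set, and both genotypes are much lower on DDC than on the control diet in periportal IBA1 segments.

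*Abcd2*, the other gene that passed, rested on 1 segment. It encodes a peroxisomal transporter of very long-chain fatty acids and lies at chr15:91145871-91192007 (GRCm38). Its Q3-normalized counts were 5.25, 116, 5.25 and 3.5 in WT and 3.71, 4.85, 5.25, 5.15 and 4.50 in Trail.mye segments. All WT segments other than ROI 009 were at 1 count, and the groups overlapped. The log2 fold change was -2.59 (SE 0.50, edgeR adjusted p = 0.021), and 0.08 with adjusted p = 1.0 once ROI 009 was left out.

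**Figure D3:**
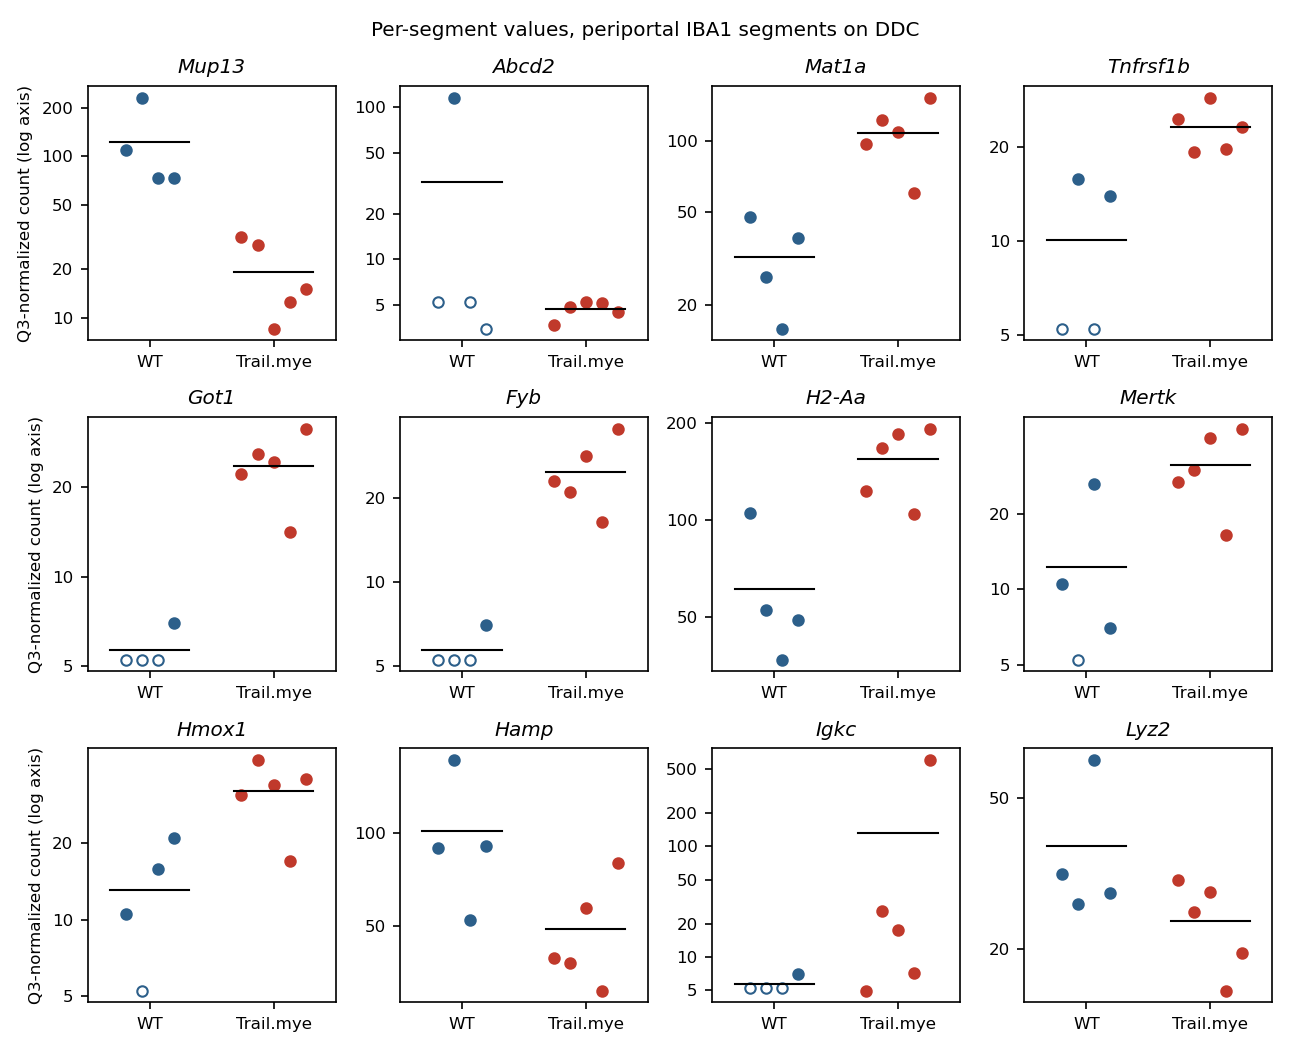
Q3-normalized count (log axis) of 12 genes in each periportal IBA1 segment on DDC, with open points for segments at 1 count and lines for group means. *Mup13* separates the genotypes, *Abcd2* is high in a single WT segment, and for *Got1* and *Fyb* 3 of 4 WT segments are at 1 count.

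On log2(Q3-normalized count + 1), limma called 15 genes (0.142%), of which *Mup13* was lower and 14 (0.133%) were higher in Trail.mye. None of the 14 passed in edgeR, and those named here were chosen after their values were seen. *Mat1a* makes S-adenosylmethionine from methionine, and its values were 47.3, 26.3, 15.8 and 38.5 in WT and 97.6, 123, 110, 60.4 and 154 in Trail.mye segments. The groups did not overlap, and its log2 fold change was 1.74 (SE 0.40) with adjusted p = 0.23 in edgeR and 0.011 in limma. *Got1*, the cytosolic aspartate aminotransferase, was at 5.25, 5.25, 5.25 and 7.00 in WT and 22.2, 25.9, 24.3, 14.1 and 31.5 in Trail.mye (limma adjusted p = 0.0056). *Fbp1*, a gluconeogenic phosphatase, and *Slc7a2*, a transporter of cationic amino acids, were also called.

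*Fyb*, an adaptor of immune receptor signalling, was at 5.25, 5.25, 5.25 and 7.00 in WT and 22.9, 21.0, 28.2, 16.3 and 35.3 in Trail.mye segments (limma adjusted p = 0.0035). *Cd300c2*, a myeloid surface receptor, *Dgkz*, a diacylglycerol kinase, *Arhgef2*, *Fkbp5*, a glucocorticoid-induced chaperone, *Adamtsl2*, *Erp29*, *Qk* and *Ppp1r12c* were also among them. *Dgkz* and *Arhgef2* were at 1 count in every WT segment, and against a floor of 3 counts per segment they were at least 1.26-fold and 1.17-fold higher in Trail.mye. These calls moved with single segments and with depth. The limma count was 32 without ROI 013, 25 without 035, 7 without 034, 6 without 032, 3 without 033 and 2 without 036, and 0 once all segments were thinned to the smallest total (32 genes at an unadjusted p under 0.05). All 14 higher calls had an edgeR log2 fold change above 0 after thinning, but thinned counts are drawn from the counts that chose these genes. Their sign is therefore no separate evidence.

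The gene lists of macrophage function are described by their counts and medians, with all genes as the background (median log2 fold change 0.06). With that median, more of all genes lay above 0 than below. Their share above 0 is not given here, so counts above 0 are not read as results about a list. Of 24 macrophage core genes 0 passed, 22 had a log2 fold change above 0, and the median was 0.36, although it was -0.13 after thinning to one total. An unadjusted p under 0.05 was found for 4, all with higher values in Trail.mye. These were *Mertk*, a receptor for apoptotic cells (1.36), *Fcgr3*, an Fc receptor (1.01), *Mpeg1*, a pore-forming protein of phagosomes (1.01), and *Cybb*, the NADPH oxidase subunit (1.02). Raw WT counts were low, at 2, 3, 7 and 10 for *Fcgr3* and 1, 2, 1 and 12 for *Cybb*. *Mertk* was at 10.5, 5.25, 26.3 and 7.00 in WT and 26.6, 29.9, 40.0, 16.5 and 43.5 in Trail.mye segments, and the groups overlapped. The 14 Kupffer cell genes had a median of -0.22 and 0 with an unadjusted p under 0.05. *Clec4f*, the Kupffer cell lectin, had a log2 fold change of -0.84 with a 95% interval of -1.92 to 0.25. Of the 22 genes of recruited and lipid-associated macrophages in the table, with a median of 0.28 (-0.20 after thinning), *Spp1* alone had an unadjusted p under 0.05. *Spp1* encodes osteopontin, which injured bile duct cells make too, and its log2 fold change was -0.71.

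Antigen presentation genes also had a median above that of all genes. Of the 18 measured, 0 passed, 17 were above 0 and the median was 0.45, although it was -0.16 after thinning to one total. The 4 members with an unadjusted p under 0.05, beside 1.49% of all genes with higher values at this p, all belong to the MHC class II pathway. Other members of that pathway, given below, were not among them. *H2-Aa*, an MHC class II chain, was at 105, 52.5, 36.8 and 49.0 in WT and 123, 167, 185, 104 and 192 in Trail.mye segments. Only ROI 035 and WT ROI 007 overlapped, and the log2 fold change was 1.35 (SE 0.39, edgeR adjusted p = 0.95). *H2-Eb1* (1.09), *H2-DMa* (1.07) and *H2-DMb1* (1.05), of which the last pair load peptide, had lower values of the log2 fold change. *Cd74*, the invariant chain, was at 0.74 with a 95% interval of -0.02 to 1.5. Of 27 phagocytosis and lysosome genes, 26 were above 0, with a median of 0.40 that was -0.32 after thinning, and *Ctsz*, a cathepsin, and *Mertk* had an unadjusted p under 0.05.

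Of 22 chemokine and receptor genes 0 passed and 0 had an unadjusted p under 0.05, with a median of 0.06, and 6 of them, among them the neutrophil attractants *Cxcl1* and *Cxcl5*, were at 1 count in all WT segments. *Ccl2*, the monocyte attractant, was at 5.25, 5.25, 10.5 and 3.5 in WT and 10.5, 12.9, 6.57, 6.94 and 6 in Trail.mye segments, and the groups overlapped (95% interval of the log2 fold change -0.57 to 1.55). Of 13 genes of cytokines and NF-kB signalling 0 had an unadjusted p under 0.05, and *Tnf* was among the 5 at 1 count in all WT segments. The 25 death receptor and apoptosis genes had a median of 0.00, with 12 above and 13 below 0. *Tnfrsf1b*, a TNF receptor, was at 5.25, 15.8, 5.25 and 14 in WT and 24.7, 19.4, 28.9, 19.8 and 23.3 in Trail.mye, with no overlap and a log2 fold change of 1.13 (edgeR adjusted p = 1.0). The 18 interferon response genes had a median of -0.06 and 0 with an unadjusted p under 0.05.

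DDC blocks heme synthesis, and macrophages recycle heme iron. Of 32 genes 0 passed, with a median of 0.04, and 4 had an unadjusted p under 0.05. *Hmox1*, the heme-degrading enzyme, was at 10.5, 5.25, 15.8 and 21.0 in WT and 30.9, 42.8, 34.1, 17 and 36.0 in Trail.mye segments. Its log2 fold change was 1.16, that of the ferritin chain *Fth1* 0.71 and that of the metallothionein *Mt1* 0.95. *Hamp*, the hepatocyte hormone hepcidin, was at 89.3, 173, 52.5 and 91.0 in WT and 39.5, 38.0, 57.1, 30.9 and 80.3 in Trail.mye (log2 fold change -1.05). The groups overlapped for both *Hmox1* and *Hamp*.

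In the lists of neighbouring cells 0 genes passed. Of 15 cholangiocyte genes *Sox9*, a duct transcription factor (-1.20), and *Spp1* had an unadjusted p under 0.05, with a list median of -0.37. That median was 0.14 with low-count genes filtered and 0.03 after thinning with total counts alone. The median of all genes was 0.17 and 0.13 in those settings, so the list lay below it in each. Of 17 hepatocyte genes the transthyretin gene *Ttr* (-0.82) and the fatty acid binding protein *Fabp1* (-1.43) had lower, and the urea cycle enzyme *Ass1* (1.27) and the tyrosine aminotransferase *Tat* (1.26) higher values in Trail.mye. Of 20 fibroblast and stellate cell genes *Acta2*, smooth muscle actin, had an unadjusted p under 0.05. It was at 15.8, 15.8, 31.5 and 21.0 in WT and 11.1, 11.3, 10.5, 11.9 and 8.25 in Trail.mye segments, with no overlap and a log2 fold change of -0.94 (SE 0.37, edgeR adjusted p = 1.0). Of 6 lymphocyte and plasma cell genes in the table, the immunoglobulin genes *Igha* and *Igkc* had log2 fold changes of 4.82 and 4.47. *Igkc* was at 4.94, 25.9, 17.7, 7.13 and 611 in Trail.mye and 5.25, 5.25, 5.25 and 7.00 in WT segments, and the highest value, in ROI 036, set the mean.

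The remaining lists held few members with an unadjusted p under 0.05, and 0 of their genes passed apart from *Mup13*. Of 22 complement genes *C9*, a pore-forming component made by hepatocytes, had a log2 fold change of 1.24, with a list median of 0.17. Of 27 genes of matrix, proteases and TGF-beta, *Timp3*, a protease inhibitor, was at -0.69 and *Tgfbr1*, a TGF-beta receptor, at 1.19, with a list median of 0.21. Of 19 macrophage metabolism genes *Cpt1a*, of fatty acid import into mitochondria, was at 1.07 and *Arg1*, arginase, at 1.22, with a list median of 0.02. Of 15 proliferation genes *Cdk1* (-1.03) and *Ccnd1* (-1.22), a cell cycle kinase and a cyclin, had lower and *Pcna* (1.19), of the replication fork, higher values in Trail.mye, with a list median of -0.31. The raw WT counts were 2, 1, 2 and 5 for *Cdk1*, 1, 9, 1 and 12 for *Ccnd1* and 2, 1, 1 and 1 for *Pcna*. Those of *C9* were 1, 1, 1 and 2. The log2 fold changes of these genes therefore rest partly on the floor. Of 19 bile acid and transport genes 0 had an unadjusted p under 0.05, with a list median of -0.05. *Csf3r*, the G-CSF receptor of neutrophils, was the 1 of 7 neutrophil genes with an unadjusted p under 0.05, but it was at 1 count in every WT segment and no fold is given, since its Trail.mye mean lies under the floor of 3 WT counts. *Stab1*, a scavenger receptor of sinusoidal endothelium and macrophages (1.15), was the 1 of 11 endothelial genes. Of 16 sex-biased liver genes *Cyp3a41a*, which female livers express more, was at 1.62 beside *Mup13*, with raw WT counts of 1, 2, 1 and 1. Of 7 sex-linked targets the X-linked helicase *Ddx3x* had an unadjusted p under 0.05 (edgeR adjusted p = 1.0). *Ddx3x* was at 1 count in every WT segment and at least 1.05-fold higher in Trail.mye against the floor of 3 counts per segment.

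**Figure D4:**
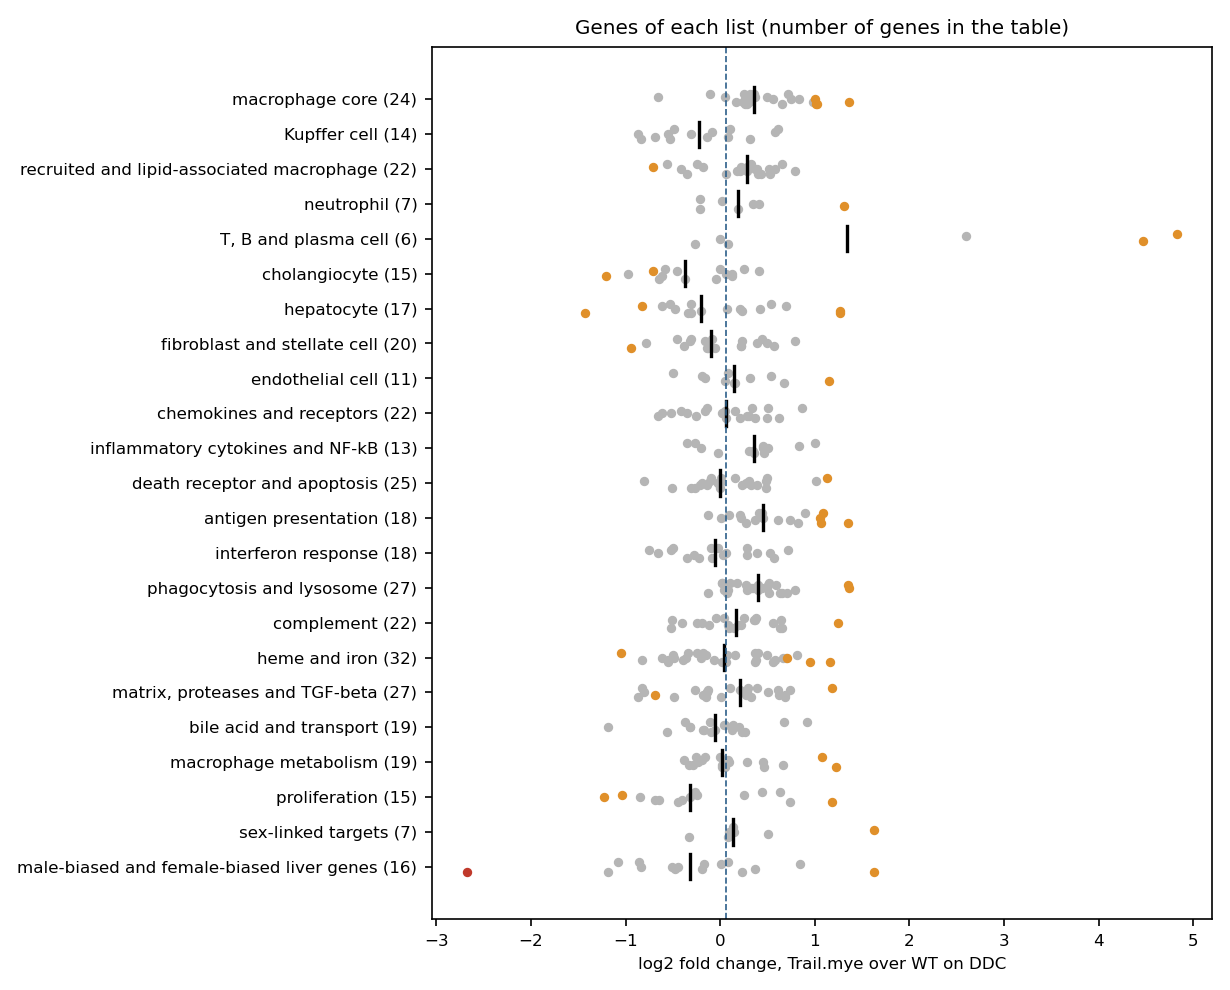
Log2 fold change (Trail.mye over WT on DDC) of the genes of each list, with black bars for list medians and a dashed line for the median of all genes. Red marks an edgeR adjusted p under 0.05, orange an unadjusted p under 0.05 and grey the rest, and *Mup13* is the single red point.

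The alleles and the strain were looked at through 3 genes. *Lyz2*, whose locus carries Cre in Trail.mye mice, was at 31.5, 26.3, 63.0 and 28.0 in WT and 30.3, 25, 28.2, 15.5 and 19.5 in Trail.mye segments (log2 fold change -0.66, 95% interval -1.33 to 0.02). *Nnt*, a mitochondrial transhydrogenase that is disrupted in the C57BL/6J substrain, was at 1 count in each WT segment and at 18, 10, 11, 36 and 17 counts in Trail.mye segments. No fold is given for *Nnt* because the Trail.mye mean lies under the floor of 3 WT counts. In the PanCK segments of the same ROIs *Nnt* was at 2.47, 2.1, 5.25 and 2.1 in WT and 12.5, 14, 12.8, 11.6 and 13.4 in Trail.mye, with no overlap (edgeR adjusted p = 0.030). There 3 of 4 WT segments were again at 1 count, and after thinning 0 PanCK genes were called higher. *Wdfy1*, an endosomal adaptor, had a log2 fold change of -0.45 with a 95% interval of -1.55 to 0.65.

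On the control diet the genotypes differed in other genes. There, 21 genes (0.199%) passed in edgeR, 4 higher and 17 lower in Trail.mye, with 4 passing when WT ROI 005 was left out and 1 after all segments were thinned to one total. *Mup13* was the 1 gene that passed on both diets. The control-diet genes included *Cyp4a12a* (-4.51) and *Cyp7b1* (-2.98), which male livers express more, *Cyp2a4* (4.55), which female livers express more, and *Gm21783* on the Y chromosome (-3.72). *Gm21783* was at 26.3 and 63.0 in WT and 1.75, 5.25, 3.94 and 1.31 in Trail.mye segments on the control diet. On DDC it was at 68.3, 31.5, 21.0 and 42.0 in WT and 69.2, 97.8, 55.1, 25.6 and 48.0 in Trail.mye, and the groups overlapped. Whether the mice of the control-diet groups differed in sex was not tested.

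The genotype difference depended on diet for 6 genes (0.0569%), all with a more positive difference on DDC, and for 0 when WT ROI 005 was left out (122 genes at an unadjusted p under 0.05) or after thinning (17). They were *Gstp1*, a glutathione transferase (interaction 3.1 on the log2 scale, SE 0.53, edgeR adjusted p = 0.0040), *Gm21783* (4.23), the aldehyde oxidase *Aox3* (3.67), *Cyp4a12a* (3.65), the betaine methyltransferase *Bhmt* (2.98) and the sterol carrier *Scp2* (2.89). *Aox3* was at 1 count in every WT segment on DDC, so its interaction rests on that floor. For each of the 6 it was the control-diet difference that passed, and none passed on DDC. Over the 4665 genes whose counts averaged at least 10, the differences on the 2 diets had a Pearson correlation of 0.09 across genes, which share libraries and the same contrast in depth.

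**Figure D5:**
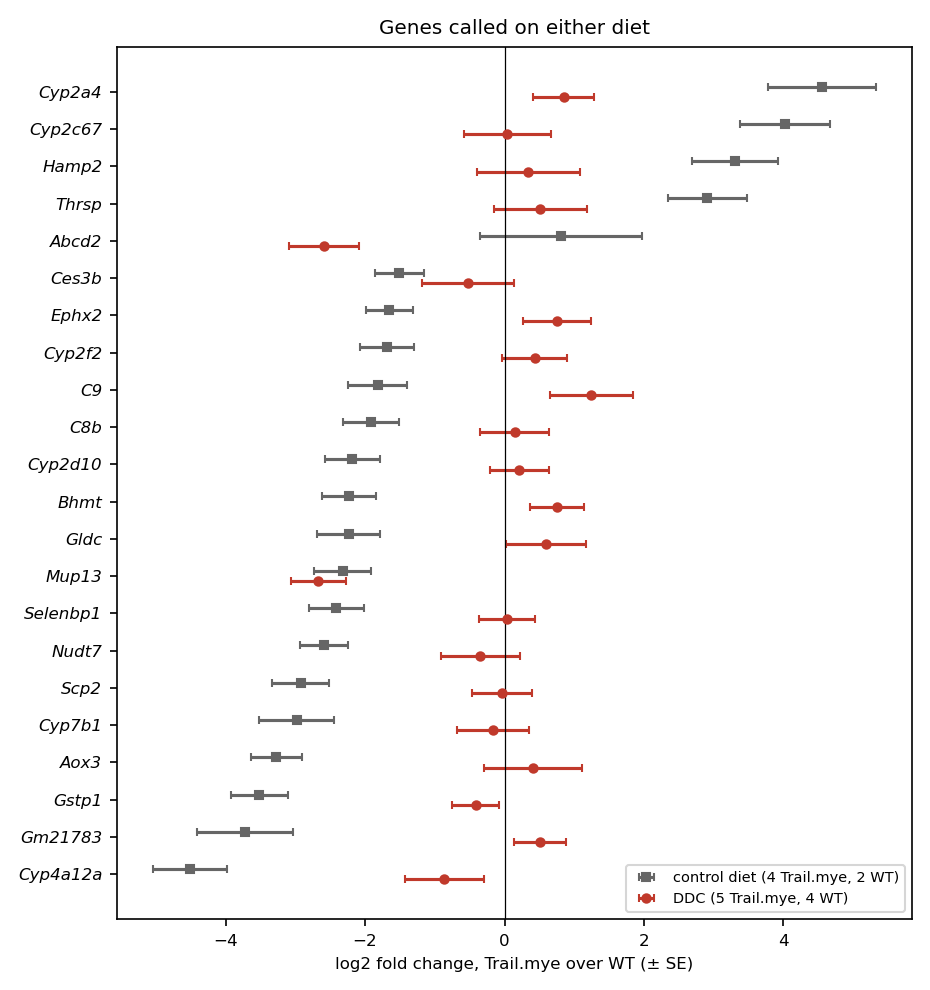
Log2 fold change of Trail.mye over WT with its SE for genes called on either diet in periportal IBA1 segments, on the control diet (grey squares) and on DDC (red circles). *Mup13* lies near the same value on both diets, while *Cyp4a12a*, *Gm21783*, *Gstp1* and *Aox3* are far below 0 on the control diet alone.

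In the PanCK segments of the same ROIs, 16 genes (0.152%) passed between genotypes on DDC, 10 higher and 6 lower in Trail.mye, and 15 of the 16 had the same sign in the IBA1 segments. The direction of these calls turned with scaling and depth, with 1 higher and 16 lower under TMM factors and 0 higher and 5 lower after thinning. *Mat1a* (1.77 in PanCK and 1.74 in IBA1 segments) and *Sds*, serine dehydratase (1.96 and 1.42), were among them. The IBA1 and PanCK segments of a ROI come from the same tissue, so these values are not independent of those above. The share of all genes with the same sign in both classes is not given, so the 15 of 16 has no background beside it. Over the 4665 genes whose counts averaged at least 10, the differences in the IBA1 and PanCK segments had a Pearson correlation of 0.23. The genotype difference itself differed between IBA1 and PanCK segments for 0 genes in edgeR (246 at an unadjusted p under 0.05), and for 0 with the ROI as a block in a paired fit (350).

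The precision of the comparison was limited. The median SE of a log2 fold change was 0.54 over all genes, and for 828 genes (7.85%) the 95% interval lay within 2-fold in both directions. For the other genes the interval reached past 2-fold in at least 1 direction at this depth.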

How the data were processed

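Formalin-fixed liver sections were profiled on the GeoMx platform (Digital Spatial Profiler) with probes of the mouse Whole Transcriptome Atlas. The expected counts per gene and segment were used as deposited, and 3 genes with values that were not whole were rounded. The Q3-normalized signal values were made by the authors by scaling the counts with 1 factor per segment. The submitters' processing notes name bcl2fastq and mm10, while the aligner and its version were not given in the sources used here. Of the 10547 gene names, 10517 matched a RefSeq symbol or synonym (GRCm38.p6).

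Genotypes were compared in R 4.3.3 by the quasi-likelihood test of edgeR 4.0.16 (upper-quartile factors, no filter) in a fit of all 15 periportal IBA1 segments with 11 residual degrees of freedom. Calls needed an adjusted p (Benjamini-Hochberg) under 0.05. The SE is the size of the log2 fold change over the square root of F. limma 3.58.1 was used on log2 values with a pseudocount of 1 or 0.5, and DESeq2 1.42.0 as an alternative. Exact permutation tests enumerated all splits, and tests are two-sided. Thinning drew each segment down to 20319 counts, 10 times, and a call needed 8 draws. In each draw genes left at 0 were set back to 1 count, so totals after this step were no longer equal. What this step did to the thinned results was not tested. Scripts were tested on simulated data. Intervals of log2 fold changes come from the fit and include the spread between segments, while floors cover counting error only.

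The PanCK and IBA1 segments of a ROI share tissue, and so are paired by ROI number. Their deviations from group means correlated at -0.01 to 0.57 across 7585 genes.

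Members, lists and tests were chosen with earlier results of these data known. The genes named are those called with no overlap between groups, those also called after thinning, called list members, *Lyz2*, *Nnt* and *Wdfy1*, the cell type markers and members behind counts of 5 or fewer, and others are said to be chosen after their values were seen. *Tnfsf10* was not analysed here. Among limma calls, 1 gene is left out of the text.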

Additional observations from a re-analysis of the deposited data

Results flagged for a closer look

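A gap test within groups of 4 or 5 segments was run on 96 groups, and 25 had 1 segment far from the others. The usual chance rate of about 1 in 20 does not apply to groups at the lowest count, where the scaling or a single count sets the gap. In WT segments the isolated high value was 116 for *Abcd2* (ROI 009), 63.0 for *Lyz2* (ROI 011), 21.0 for *Adamtsl2*, *Fkbp5* and *Wdfy1*, 14 for *Erp29*, and 7.00 for *Cd300c2*, *Fyb*, *Got1*, *Igha*, *Igkc* and *Ppp1r12c*, all as Q3-normalized counts. The isolated low value was 3.5 in WT ROI 013 for *Arhgef2*, *Cxcl1*, *Cxcl5*, *Dgkz*, *Jchain*, *Nnt* and *Tnf*. This is the value of 1 count there, where 1 count is worth 5.25 in the other WT segments.

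In Trail.mye segments ROI 036 stood apart in the plasma cell genes *Igha* (822), *Igkc* (611) and *Jchain* (134), and ROI 035 was low in *Arg1* (43.2), an arginase. ROI 035 also had a total count of 568719 and a negative probe share of 4.89 per 100000 counts.

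The genotype difference changed with diet for *Gm21783* (4.23 on the log2 scale), *Aox3* (3.67), *Cyp4a12a* (3.65), *Gstp1* (3.1), *Bhmt* (2.98) and *Scp2* (2.89), each tested as an interaction.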

How the results depend on the processing

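*Mup13* was lower in Trail.mye under all 22 alternatives (log2 fold change -2.93 to -2.17) and passed in 21, the exception being the adjusted unpaired two-group test. *Abcd2* passed in 9 of 21 and ranged from -3.099 to 0.078 with 1 segment left out, the last without WT ROI 009. The count of 2 genes was 1 with DESeq2, 1 with the 9 segments alone, 1 after thinning with total counts alone, 15 with limma at either pseudocount, 24 with counts of 1 set to 0, 6 with the negative probe subtracted, and 0 (1046 unadjusted) with the two-group test. With all 38 segments in one fit the count was 3, of which 1 was higher and 2 lower. It was 1 to 2 with 1 segment left out, and was 1 without ROI 009, 032, 034 or 036. Without ROI 035 the count was 2, of which 1 was higher and 1 lower, with 484 genes at an unadjusted p under 0.05. *Abcd2* passed in 4 of the 9 fits with 1 segment left out. After thinning to one total the 2 genes were *Mup13* and *Alb* (-1.14), and with low-count genes filtered they were *Mat1a*, higher, and *Mup13*. Another scaling moved the median of all genes from 0.06 to -0.09 (TMM) or -0.14 (DESeq2). The limma count of 15 was 0 after thinning and 2 to 32 with 1 segment left out. The control-diet count of 21 was 1 after thinning and 4 to 22 with 1 segment left out. The diet interaction count of 6 was 0 after thinning (17 unadjusted) and 0 to 9 with 1 segment left out. The PanCK count of 16 was 5 after thinning, none of them higher, and 17 with TMM, of which 1 was higher and 16 lower. The count by segment class stayed at 0 with the ROI as replicate block. Thinning leaves fewer counts per segment, and setting genes at 0 back to 1 leaves the totals unequal. The cause of the other changes was not tested. Depth in WT limits every low-count gene.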
